A study of Mus musculus with 2 samples.

Results

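Expression of 10 lymphoid genes was read in common myeloid progenitors (CMP) of the mouse, marrow cells that give rise to granulocytes, monocytes, red cells and megakaryocytes. The 10 genes were Dntt, Rag1, Rag2, Vpreb1, Igll1, Cd79b, Lck, Cd5, Ebf1 and Pax5. They were picked by name as lymphoid genes, found by symbol through the gene identifier, and matched 10 of 10 among the 43346 mouse genes of the deposited tables. Each of the 2 libraries held total RNA, longer than 200 nucleotides, from a pool of 100 primary CMP, with 2 sets of spike-ins named. The cells came from male C57BL/6J adults of 5 to 6 weeks, and the labels name no treatment. The labels call the libraries biological replicates of 1 group, each with its own biosample but under a shared donor identifier, so there is no contrast between conditions.

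Lymphoid priming is the low transcription of lymphoid genes in blood progenitors that have not yet committed to the lymphoid lineages. B and T cells build their antigen receptors by V(D)J recombination, in which the RAG proteins cut DNA, terminal transferase adds bases at the cut ends and general repair proteins join them. B cell precursors first test their heavy chain in a pre-B receptor, made with a surrogate light chain and a CD79 signalling pair, and the transcription factors EBF1 and PAX5 set and hold the B cell fate.

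The transcript that carried the reads is part of the result for Dntt and Vpreb1, so their sequences are shown first. Dntt has a longer coding form that holds an exon of 60 bases (20 residues), exon 11 of 12, at chr19:41058567-41058626 on the plus strand of GRCm38. Below, that exon is in capitals between 30 coding bases on each side, and the shorter form shows the same flanks joined without it. Vpreb1 has a near copy, Vpreb2, which differs at 9 of 426 coding bases (97.9% identity). Their first 150 coding bases are shown with the 3 differing bases in capitals. The coding regions lie at chr16:16868599-16869111 on the minus strand for Vpreb1 and chr16:17980565-17981077 on the plus strand for Vpreb2. All 4 sequences come from the GENCODE M21 transcripts.
Dntt long form: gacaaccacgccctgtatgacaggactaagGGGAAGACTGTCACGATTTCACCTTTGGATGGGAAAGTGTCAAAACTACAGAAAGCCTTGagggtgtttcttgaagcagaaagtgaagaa
Dntt short form: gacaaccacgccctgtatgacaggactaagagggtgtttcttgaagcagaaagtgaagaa
Vpreb1: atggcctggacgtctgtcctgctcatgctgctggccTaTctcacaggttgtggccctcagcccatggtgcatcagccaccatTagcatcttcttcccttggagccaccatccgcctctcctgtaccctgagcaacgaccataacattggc
Vpreb2: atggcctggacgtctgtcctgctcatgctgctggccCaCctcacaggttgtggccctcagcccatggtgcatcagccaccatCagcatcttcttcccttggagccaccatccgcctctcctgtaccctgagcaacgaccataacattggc

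The libraries held 28916263 expected counts in replicate 1 and 26426710 in replicate 2. An expected count is an estimate in which a read that matches several genes is divided among them, and at 0 counts a gene may still lie as high as 3 counts, which is 0.104 counts per 1000000 for replicate 1 and 0.114 for replicate 2. Intervals, floors and p-values below cover counting error only, since reads that carry no molecular identifier need not be separate molecules. Of the 6 genes of the CMP gate, Kit had 98.14 and 92.95 TPM (transcripts per 1000000) in replicates 1 and 2, Cd34 had 74.54 and 55.40 TPM, and Ly6a and Il7r, which CMP are classically sorted without, had 0 counts. The Fc receptor genes of the gate were higher in replicate 2: Fcgr2b had 2.48 and 9.59 TPM and Fcgr3 had 0.64 and 4.27 TPM in replicates 1 and 2. Cd79b, Dntt, Lck and Rag2 were also higher in replicate 2, while Cd34, Cd5 and Vpreb1 were higher in replicate 1. The binomial test described below called 40.6% of all 13616 genes tested higher in replicate 2 and 37.6% higher in replicate 1. A shared direction over 2 libraries therefore does not tie genes together. Whether the pools differed in makeup was not tested. In a pool, fewer cells that express a gene and less RNA of it per cell cannot be told apart.

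Cd79b and Dntt were the lymphoid members read at 1 TPM or more in both libraries, 2 of 10, where 44.9% of the 21461 nuclear protein-coding genes reached that level. Lck, Cd5 and Vpreb1 reached it in 1 library, and Igll1, Rag1, Rag2, Ebf1 and Pax5 in neither. Within each library the members' median level was below that of all nuclear protein-coding genes, at 0.100 against 0.32 TPM in replicate 1 and 0.115 against 0.56 TPM in replicate 2. The median of the 10 mean levels was 1.08 TPM, against 0.64 TPM over all nuclear protein-coding genes, so the direction turns when the libraries are averaged. Cd5 and Vpreb1 had 20 or more counts in one library and under 3 in the other, 2 of the 6 members with 20 or more counts in a library. Among the 11362 nuclear protein-coding genes that reached this minimum, 7.15% showed the same, but 3395 of these had 1000 or more counts. By the count of the higher library, the share was 64.1% at 20 to 49, the range of Lck and Rag2. It was 30.8% at 50 to 99 (Vpreb1), 5.90% at 100 to 199 (Cd5) and 0.415% at 200 to 499 (Cd79b and Dntt). The 7.15% is therefore not a count-matched reference for the 6 members. Ebf1 and Pax5 had 0 counts in both libraries, as had 43.6% of nuclear protein-coding genes.

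**Figure D1:**
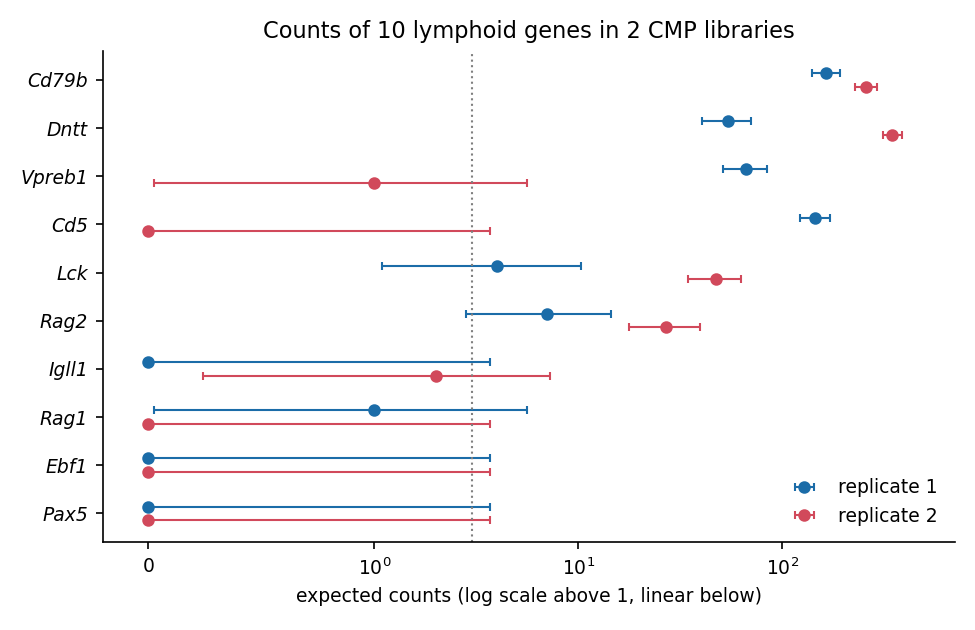
Expected counts of the 10 lymphoid genes, 1 row a gene from the highest mean TPM down, in replicate 1 (blue) and replicate 2 (red) with exact 95% Poisson intervals; the dotted line marks 3 counts. Cd79b and Dntt have over 50 counts in both libraries, Vpreb1 and Cd5 have 66 and 145 in replicate 1 and 1 and 0 in replicate 2, and Ebf1 and Pax5 are at 0.

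Among the recombination genes, Dntt and Rag2 were counted in both libraries, and Rag1 had 1 count in all. Dntt (ENSMUSG00000025014, chr19:41029275-41059525, plus strand) encodes terminal deoxynucleotidyl transferase, the polymerase that adds untemplated bases at V(D)J joints. Replicate 1 held 54 counts of it and replicate 2 held 346, or 1.37 and 8.80 TPM, a mean of 5.09 ± 5.25 TPM (SD, n = 2). Replicate 2 was the higher, and the count intervals of the libraries did not overlap. Scaled for library size, the count of replicate 2 was 6.28 times that of replicate 1 (95% interval 4.71 to 8.54; two-sided exact binomial test, Benjamini-Hochberg adjusted p = 1.66e-50). Of the 2651 genes with 200 to 499 counts in their higher library, 2.60% had a ratio as large.

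The binomial test compares the reads of these 2 libraries, not conditions, and it called 10647 of 13616 genes (78.2%), 5121 (37.6%) higher in replicate 1 and 5526 (40.6%) higher in replicate 2. All 6 members tested were called, 2 higher in replicate 1 and 4 higher in replicate 2, so the call itself does not set them apart from other genes. With the spread between the libraries, pooled over all genes, as the error (edgeR exact test at a common dispersion, biological coefficient of variation 0.759), 0 of 13616 genes and 0 of the 6 members passed an adjusted p of 0.05. At an unadjusted p under 0.05 that test had 1541 genes (11.3%) and 2 members, Cd5 and Vpreb1. The 4 remaining members had under 10 counts in both libraries and were not tested.

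The Dntt reads fell mostly on the shorter coding form. In replicate 1 all 54 counts were assigned to it and 0 to the longer form. In replicate 2, 277.24 counts (80.62% of the gene's TPM) were assigned to the shorter form and 68.76 (19.38%) to the longer. The shorter form was thus the main one in both libraries, and the longer was seen in replicate 2, the library with more Dntt reads. In mouse, the shorter protein is the one known for adding bases at joints. The forms differ by the 60-base exon alone, so the split rests on reads that touch it or its junctions.

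RAG1 and RAG2 together form the recombinase, RAG1 holding the active site and RAG2 reading a histone mark. Rag2 (ENSMUSG00000032864, chr2:101624718-101632529, plus strand) had 7 counts in replicate 1, against 27 in replicate 2, or 0.10 and 0.78 TPM. Replicate 2 was the higher, at 3.78 times replicate 1 (1.61 to 10.3; exact binomial test, adjusted p = 0.00129), and 71.9% of the 758 genes with 20 to 49 counts had a ratio as large. The 7 counts of replicate 1 were assigned to a transcript of 3424 bases and the 27 of replicate 2 to one of 1857 bases, so no Rag2 transcript had counts in both. Rag1 (ENSMUSG00000061311, chr2:101638282-101649501, minus strand), its neighbour, had 1 count, in replicate 1. Both genes overlap exons of B230118H07Rik, Rag2 over 208 bases and Rag1 over 80, and that gene had 398 and 260 counts. B230118H07Rik lies on the strand of Rag1, so strand could not separate their reads in the overlap. It lies opposite Rag2, and whether the counting used strand is not given in the sources used here, so part of the Rag2 counts may belong to it as well.

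The cutting and joining list, 15 genes with Dntt, Rag1 and Rag2 among them, was otherwise well represented: 11 of 15 had 1 TPM or more in both libraries, and the list's median was 6.41 TPM. Hmgb1, whose protein bends DNA and aids RAG cutting in vitro, had 284.72 and 283.88 TPM in replicates 1 and 2. Hmgb2, its relative, had 97.33 and 77.48 TPM. Xrcc6, which encodes the Ku70 end-binding protein, had 36.85 and 42.15 TPM. These are general chromatin and repair genes, expressed in most dividing cells. Rag1 and Rag2 were the 2 genes of this list that stayed below 1 TPM in both libraries. Of the 14 genes tested by the binomial test 11 were called, 5 higher in replicate 1 and 6 higher in replicate 2. Over all 13616 genes tested, 78.2% were called, so this count does not set the list apart.

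**Figure D2:**
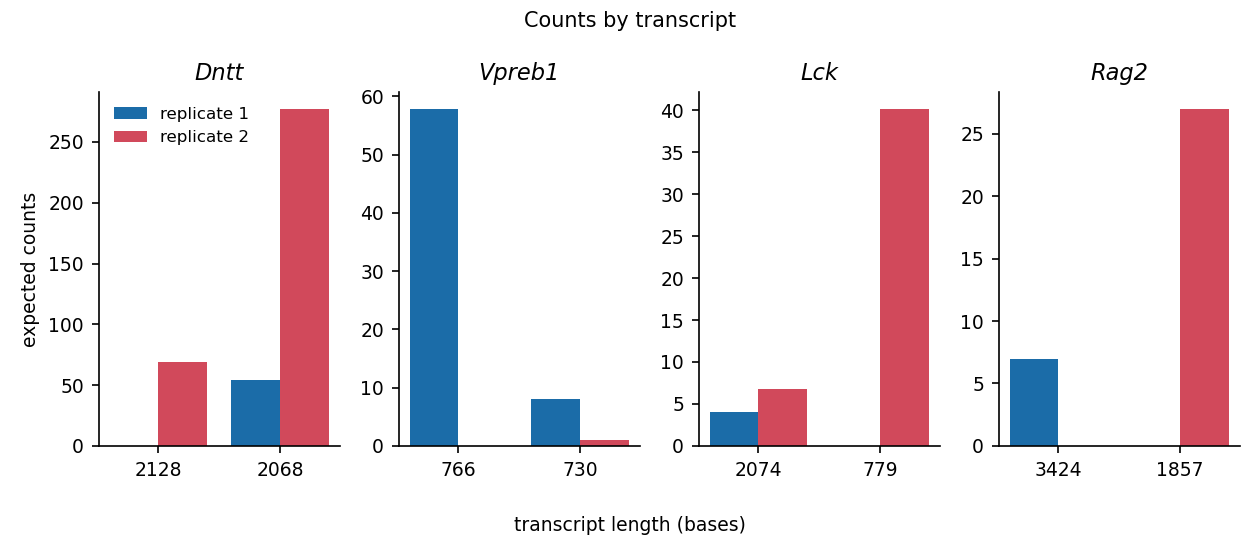
Expected counts by annotated transcript, named on the horizontal axis by its length in bases, for 4 genes in replicate 1 (blue) and replicate 2 (red); transcripts with 0 counts in both libraries are left out, and each panel has its own vertical scale. Dntt counts lie mostly on the shorter form in both libraries, and Lck and Rag2 counts lie on different transcripts in replicate 1 and replicate 2.

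Of the pre-B receptor genes, Cd79b was read in both libraries, Vpreb1 in replicate 1, and Igll1 at no more than 2 counts. Cd79b (ENSMUSG00000040592, chr11:106311341-106314762, minus strand) encodes Ig-beta, 1 of the 2 signalling chains of the B cell and pre-B receptors. It had 164 counts in replicate 1 (95% interval 140 to 191) and 258 in replicate 2 (227 to 291), or 7.60 and 12.18 TPM. This was the highest mean among the members, 9.89 ± 3.24 TPM (SD, n = 2), at percentile 72.5 of nuclear protein-coding genes. Replicate 1 was the lower, at 0.648 of replicate 2 (0.530 to 0.791; exact binomial test, adjusted p = 2.54e-05), and 43.0% of genes with 200 to 499 counts had a ratio as large. All its counts were assigned to the transcript of 1195 bases, and 0 to the one of 1431 bases. Cd79a, which encodes the partner chain Ig-alpha, had 0 counts in both libraries. The Cd79b level was at least 68.3-fold above that of Cd79a in replicate 1 and at least 108-fold in replicate 2 on the TPM scale, with 3 counts of Cd79a per library as the floor.

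Vpreb1 (ENSMUSG00000059305, chr16:16868403-16870843, minus strand) encodes the variable-like chain of the surrogate light chain. It had 66 counts in replicate 1, against 1 in replicate 2, or 5.21 and 0.09 TPM, a mean of 2.65 ± 3.62 TPM. Replicate 1 was the higher, at 67.3 times replicate 2 (11.7 to 2698; exact binomial test, adjusted p = 1.53e-18). Of the 803 genes with 50 to 99 counts in their higher library, 30.8% had under 3 counts in the other and 25.0% had a ratio as large. Of the replicate 1 counts, 57.87 were assigned to a transcript of 766 bases and 8.13 to one of 730 bases, which also took the 1 count of replicate 2. The transcript of 730 bases is not in GENCODE M21, so the shared windows and overlap given next do not include it. The near copy Vpreb2 had 0 counts in both libraries, as had Vpreb3. Of the 50-base windows of the Vpreb1 transcripts, 23.6% also occur in Vpreb2 or in Top3b, which overlaps Vpreb1 exons over 108 bases on the other strand. Top3b, which encodes a topoisomerase, had 1588 and 1643 counts, so reads of the overlap cannot be told apart where strand was not used. The overlap lies at the upstream end of Vpreb1, from chr16:16870736 to chr16:16870843, outside the coding region at chr16:16868599-16869111. How many Vpreb1 reads fell in it was not tested.

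Igll1 (ENSMUSG00000075370, chr16:16860671-16863985, minus strand) encodes lambda5, the constant-like chain that pairs with VpreB, and lies beside Vpreb1. It had 0 counts in replicate 1, against 2 in replicate 2 (95% interval 0.242 to 7.22), or 0 and 0.14 TPM. Replicate 1, which held 66 counts of Vpreb1 against 1 in replicate 2, thus held 0 counts of Igll1.

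The wider pre-B receptor and B cell list was read in part. Of its 19 genes, with Cd79b, Vpreb1 and Igll1 among them, 5 had 1 TPM or more in both libraries and 6 had 0 counts in both. Ighm, the heavy chain constant region gene, had 30.12 and 47.83 TPM in replicates 1 and 2, and Cd72, which encodes an inhibitory receptor, had 15.65 and 5.39 TPM. The kinase genes Syk, at 36.01 and 43.00 TPM, and Btk, at 23.76 and 26.40 TPM, are used in myeloid cells as well. Blnk, which encodes an adaptor of the B cell receptor, had 36 counts in replicate 1, against 0 in replicate 2. Igkc, the kappa constant region gene, had 0 and 31. Of the 758 genes with 20 to 49 counts in their higher library, 64.1% had under 3 in the other. Ms4a1, which encodes CD20, had 0 counts in both. Of 8 B cell markers, Cd79b included, 3 had 1 TPM or more in both libraries (Cd79b, Ighm and Cd72), and the 8 summed to 54.3 and 67.0 TPM. Their part in the member values was not tested.

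Lck and Cd5, the T cell signalling members, were each read in 1 library or nearly so. Lck (ENSMUSG00000000409, chr4:129548344-129573641, minus strand) encodes the SRC-family kinase that starts T cell receptor signalling. It had 4 counts in replicate 1, against 47 in replicate 2, or 0.10 and 3.35 TPM. Replicate 2 was the higher, at 11.5 times replicate 1 (4.21 to 44.0; exact binomial test, adjusted p = 7.55e-10), and 63.6% of genes with 20 to 49 counts had a ratio as large. In replicate 2, 40.16 of the counts (94.79% of the gene's TPM) were assigned to a transcript of 779 bases annotated as a retained intron, and 6.84 to a coding transcript of 2074 bases. In replicate 1 all 4 counts were assigned to that coding transcript. The Lck level of replicate 2 was therefore mostly that of a non-coding annotation, and its counts on coding transcripts, 4 and 6.84 in replicates 1 and 2, were close.

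Cd5 (ENSMUSG00000024669, chr19:10717116-10739002, minus strand) encodes a receptor that dampens antigen receptor signalling on T cells and on B-1 cells. It had 145 counts in replicate 1, against 0 in replicate 2, or 3.67 and 0 TPM. Replicate 1 was at least 49.3-fold the higher, with 3 counts in replicate 2 as the floor (exact binomial test, adjusted p = 1.36e-43). Of the 1135 genes with 100 to 199 counts in their higher library, 5.90% had under 3 counts in the other, 3.88% had 0, and 0.969% had a ratio as large. Cd5 thus had more counts than any other member read in 1 library, and it shares no 50-base window and no exon with another gene. Its neighbour Vps37c, a gene of endosomal sorting, had 614 and 558 counts in replicates 1 and 2.

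**Figure D3:**
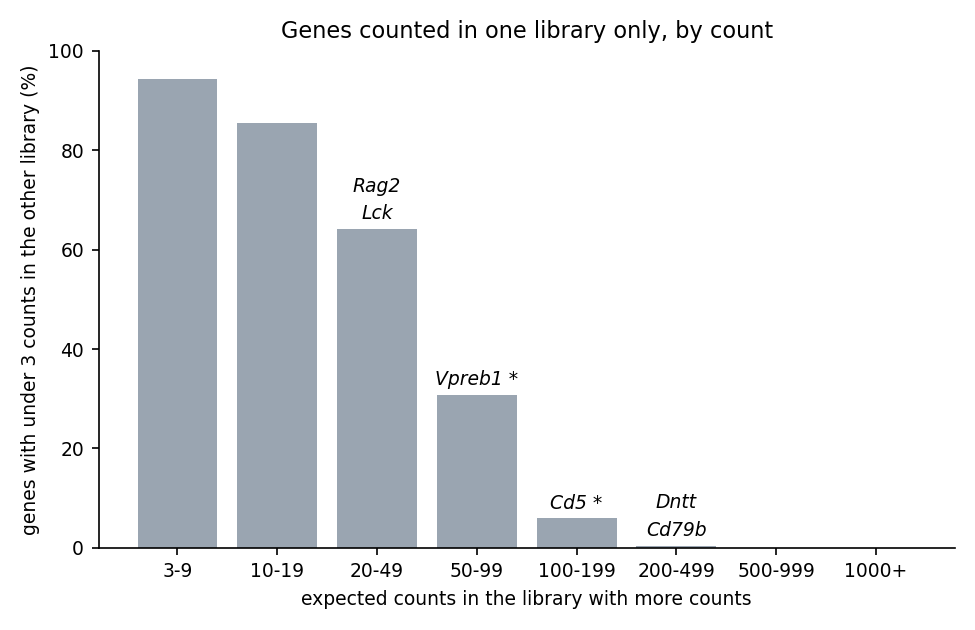
Share of genes with under 3 expected counts in the other library (percent, vertical axis), by the count in the library that had more (horizontal axis); member names stand over the bar of their count, and an asterisk marks members with under 3 counts in the other library. The share is 64.1% at 20 to 49 counts, 30.8% at 50 to 99, 5.90% at 100 to 199 and 0.415% at 200 to 499.

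The T cell receptor and T cell list, 21 genes with Lck and Cd5 among them, had 2 genes at 1 TPM or more in both libraries, Lat and Fyn. Lat, which encodes an adaptor of T cells, mast cells and platelets, had 15.40 and 30.66 TPM in replicates 1 and 2. Fyn, a kinase gene used in many tissues, had 9.43 and 8.22 TPM. Cd3e, Cd3d and Cd3g, which encode parts of the T cell receptor complex, and Zap70, the gene of the kinase that binds it, were among 10 genes of the list with 0 counts in both. Cd247, the gene of the zeta chain of that complex, had 0 counts in replicate 1, against 34 in replicate 2. At 20 to 49 counts in the higher library, 64.1% of genes had under 3 in the other. Of 9 T cell markers none reached 1 TPM in both libraries, 5 had 0 counts in both, and the 9 summed to 0.740 and 3.46 TPM. None of the 9 reached 1 TPM in replicate 1. In replicate 2, Thy1 at 1.77 TPM and Cd247 at 1.13 TPM reached it. Thy1 had 19 and 57 counts in replicates 1 and 2, Cd4 had 6 and 28, and Cd2 had 1 in each. Cd6, a gene of the list outside the 9 markers, was higher in replicate 1, at 35 and 16 counts. The part of T cells in the member values was not tested.

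Ebf1 and Pax5, the B lineage factors, had 0 counts in both libraries. Ebf1 (ENSMUSG00000057098, chr11:44617317-45008091, plus strand) could have reached up to 0.0617 and 0.0623 TPM in replicates 1 and 2 at 3 counts, and Pax5 (ENSMUSG00000014030, chr4:44524757-44710487, minus strand) up to 0.179 and 0.183 TPM. The deposited posterior mean TPM, a second estimate in the same tables, was above 0 for both: 0.63 and 0.67 for Ebf1, and 2.02 and 2.17 for Pax5. The tables list 7 transcripts for Ebf1 and 20 for Pax5, each with 0 counts, so the Pax5 posterior mean does not stand for reads assigned to the gene.

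Of the 23 lymphoid transcription factor genes, Ebf1 and Pax5 included, 11 had 1 TPM or more in both libraries, and 6 had 0 counts in both. Ikzf1, which encodes Ikaros, had 91.35 and 64.59 TPM in replicates 1 and 2, and Bcl11a, a factor needed for early B cells, had 82.89 and 105.77 TPM. The E protein genes Tcf3 and Tcf12, whose products act upstream of or with EBF1, had 35.17 and 49.66 TPM and 52.25 and 53.60 TPM. Spib and Lef1, genes of later B and T cell factors, had 0 counts. Gata3, with 65 and 0 counts, and Irf4, with 53 and 1, were counted in replicate 1, and Id2, with 0 and 83, and Tox, with 0 and 86, in replicate 2. Each of these 4 thus had under 3 counts in the other library, as had 30.8% of the 803 genes with 50 to 99 counts. Ebf1 and Pax5 were not detectable at this depth.

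**Figure D4:**
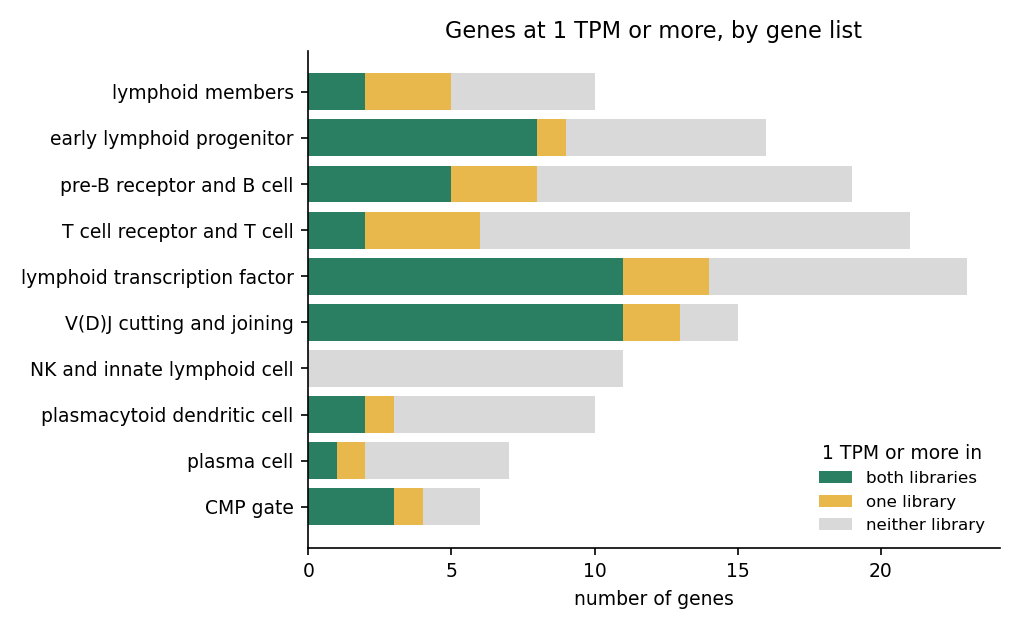
Number of genes at 1 TPM or more in both libraries (green), in 1 library (yellow) or in neither (grey) for the 10 lymphoid members and 9 context lists, some of which hold members. The members have 2, 3 and 5 genes in these classes, and the NK and innate lymphoid list has 11 of 11 genes in neither.

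By mean TPM the members ran Cd79b, Dntt, Vpreb1, Cd5, Lck, Rag2, Igll1 and Rag1, with Ebf1 and Pax5 last at 0. Cd79b at 7.60 and 12.18 TPM overlapped Dntt at 1.37 and 8.80 TPM, and Dntt overlapped Vpreb1, Cd5 and Lck, so this order is not settled by these libraries. Without length correction Vpreb1 and Cd5 changed places and no other member moved. The early lymphoid progenitor list, 16 genes with Dntt, Rag1 and Rag2 among them, had 8 genes at 1 TPM or more in both libraries. Cd27, a receptor gene of early progenitors, had 25.74 and 33.63 TPM in replicates 1 and 2. Flt3, the receptor gene of lymphoid-primed progenitors, had 14.48 and 13.59 TPM. Il7r, Ly6d and Ccr7, genes of later lymphoid progenitors, had 0 counts in both libraries. Hes1, a Notch target, had 30 and 0 counts, in the range of 20 to 49 where 64.1% of genes had under 3 in the other library.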

How the data were processed

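Total RNA-seq of 2 CMP libraries was used, grouped and numbered per the labels. Reads were aligned by the authors to mm10 transcripts of GENCODE M4, per the notes deposited with the tables; the sources used here give no aligner, quantifier or strand setting. The deposited expected counts are estimates for each gene and each transcript, and the deposited TPM values are per 1000000 transcripts over all table entries. The deposited percent values give each transcript's share of its gene. Symbols and coordinates came from GENCODE M21 on the same build by unversioned identifier (42462 of 43346 mouse genes matched). No column of other samples was present.

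Counts were rounded, scaled by TMM in edgeR 4.0.16 (R 4.3.3) and compared by a two-sided exact binomial test in SciPy 1.17.1, where a gene had at least 10 counts in either library, with p adjusted by Benjamini-Hochberg over all genes at 0.05. With 1 library a side the quasi-likelihood test has no residual degrees of freedom. Levels are mean and SD; count intervals are exact Poisson at 95%. Ratio intervals are exact binomial, and shares of genes with as large a ratio added 0.5 to each count. The test was checked on simulated counts that held counting noise alone, which does not cover the wider spread between these libraries. Alternatives were other thresholds, posterior means, rescaled TPM, other scalings, DESeq2 1.42.0 size factors, no count minimum, the edgeR exact test and each library alone.

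Genes named are the members, their partners, copies, overlaps and neighbours. From 9 context lists they are the 4 highest genes, up to 4 at 0 and those counted in 1 library. Some are left out for length, and Flt3, Thy1, Cd4, Cd2 and Cd6 were named after their values were seen. Members and lists were chosen with earlier results of these data known.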

Additional observations from a re-analysis of the deposited data

How the results depend on the processing

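The count of members at 1 TPM or more in both libraries, 2, was 2 at 0.5 TPM and with rescaled TPM, 1 at 2 TPM (Cd79b) and 3 with posterior mean TPM, which added Pax5 at 0 counts. From a single library it ranged from 3 (without replicate 1) to 4 (without replicate 2). The count of members read in 1 library, 2, was 1 (Cd5) when 0 counts were asked of the other library, and 1 (Cd5) among the 5 members that share no sequence or exon with another gene; with 10 or 50 counts as the minimum, or posterior mean counts, it was 2. The median of the member means, 1.08 TPM, was 1.93 with posterior means and 2.76 with TPM rescaled to sum over nuclear protein-coding genes, a step that raises all levels by construction, and 0.100 to 0.115 from a single library.

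The binomial test called 10655 genes with DESeq2 size factors, 10790 with total-count scaling and 10752 of 14896 with no count minimum, and the same 6 members each time. Total-count scaling split its calls 3632 higher in replicate 1 and 7158 higher in replicate 2, against 5121 and 5526 with TMM. At the common dispersion, edgeR's exact test called 0 genes and 0 members (member adjusted p from 0.231 to 1; 1541 genes and 2 members at an unadjusted p under 0.05). No member's ratio changed direction. The longer Dntt form took 19.4% of the gene in replicate 2, and 20.4% by posterior mean, an alternative chosen after seeing the data. No paired analysis was possible because the series holds 1 group. With 2 pools of 100 cells, members with few counts in their lower library had wide ratio intervals, the widest that of Vpreb1 (11.7 to 2698).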

Other observations

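Genes of lymphoid lineages outside the B and T cell lists were mostly below 1 TPM in both libraries. Of 11 natural killer and innate lymphoid genes none reached 1 TPM in both libraries, against 44.9% of nuclear protein-coding genes. The list summed to 1.46 and 0.620 TPM in replicates 1 and 2. Ncr1, Klrb1c, Eomes and Il2rb, which mark natural killer cells or their cytokine response, were among 6 genes of the list with 0 counts in both. Of all nuclear protein-coding genes, 43.6% had 0 counts in both. Klrk1 had 29 and 27 counts in replicates 1 and 2, Rora had 43 and 39, and Gzmb had 17 and 0. Of 10 plasmacytoid dendritic cell genes 2 reached 1 TPM in both libraries: Tcf4, an E protein gene, had 18.51 and 17.82 TPM, and Bst2, an interferon-induced membrane protein gene, had 12.35 and 15.80 TPM. Siglech and Cox6a2, which are more specific to those cells, had 0 counts. Tlr9 had 80 and 20 counts in replicates 1 and 2, and Tlr7 had 2 and 23. Of 7 plasma cell genes, Xbp1, a secretory stress factor gene, had 26.87 and 23.83 TPM, and Jchain, Tnfrsf17 and Mzb1 had 0 counts. Prdm1 had 59 and 95 counts in replicates 1 and 2, Igkc had 0 and 31, and Sdc1 had 0 and 15.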
